A study of Rattus norvegicus with 16 samples.

Results

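The circadian clock output genes examined here are 10 genes of the molecular clock, some of them parts of its core loop and some its targets: the period genes Per1, Per2 and Per3, the cryptochromes Cry1 and Cry2, the nuclear receptors Nr1d1 and Nr1d2, the PAR bZIP factors Dbp and Tef, and Npas2. The members were the probes whose RefSeq accession on the array mapped to these symbols in rat, which gave 15 probes of 10 genes. The array held 30367 probes, of which 18005 mapped to 15168 named genes. All 15 probes passed the filter on dim probes, as did 21808 probes of the array, and each lay well above background on all 16 arrays. Where a gene had several probes, its level is that of the probe with the highest mean signal.

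The arrays came from epididymal white adipose tissue, a visceral fat depot beside the epididymis, in male rats aged 30 days. In the HFT group (8 animals) the mothers ate a high-fat diet through pregnancy and lactation and received a procyanidin extract of grape seeds (GSPE), 25 mg per kg of body weight, in low-fat condensed milk. In the HF group (8 animals) the mothers ate that diet and received the milk alone. Both groups of sons ate the mothers' high-fat diet until they were killed, fed ad libitum, under pentobarbital anaesthesia. No standard-diet animals were analysed here, so every animal carried the high-fat background. The hour of killing and which animals shared a mother are not given in the sources used here, and p-values treat the 16 animals as independent.

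In mammalian cells the clock is a feedback loop of transcription. A heterodimer of BMAL1 with CLOCK, or with its paralogue NPAS2, binds E-boxes and drives the Per, Cry, Nr1d1, Nr1d2, Dbp and Tef genes, and the PER and CRY proteins in turn inhibit that heterodimer. The NR1D proteins (REV-ERBs) repress Bmal1 and Npas2 through ROR elements, and DBP and TEF activate genes through D-boxes, where NFIL3 represses. In rodent peripheral tissues, fat pads included, Dbp, Nr1d1, Nr1d2 and Tef therefore peak at a time of day roughly opposite to Bmal1 and Npas2, with Cry1 later than the other members of the negative limb.

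The members' promoters show where these elements lie near the start site. RefSeq windows on build GRCr8, from 250 bases before to 50 after the start, were given for 9 of the 10 members, with 10 windows in all because Nr1d1 had 2. The motifs searched on both strands were the E-box CACGTG, the E′-box CACGTT, the D-box TTATGTAA or TTACGTAA, and the ROR element TAGGTCA. None of these 4 patterns overlaps another in the windows shown. Below, 5′ to 3′ on the gene's own strand, are the windows of Tef, Nr1d1, Nr1d2, Dbp, Npas2 and Bmal1, whose levels the results turn on, and of Per2, the only one of the 9 members with a window that held a D-box, with matches in capitals. Tef and Nr1d1 hold an E-box, Per2 an E′-box and a D-box, and Bmal1, which is no member, a ROR element. Nr1d2, Dbp and Npas2 hold no match in this window.
Tef (chr7:115206577-115206876, plus strand): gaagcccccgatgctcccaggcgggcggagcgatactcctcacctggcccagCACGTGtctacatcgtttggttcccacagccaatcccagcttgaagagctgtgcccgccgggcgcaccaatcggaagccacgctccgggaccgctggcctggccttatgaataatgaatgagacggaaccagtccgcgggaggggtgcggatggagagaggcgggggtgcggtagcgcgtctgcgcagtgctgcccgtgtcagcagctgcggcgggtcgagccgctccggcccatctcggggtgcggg
Nr1d1 (chr10:84229405-84229704, minus strand): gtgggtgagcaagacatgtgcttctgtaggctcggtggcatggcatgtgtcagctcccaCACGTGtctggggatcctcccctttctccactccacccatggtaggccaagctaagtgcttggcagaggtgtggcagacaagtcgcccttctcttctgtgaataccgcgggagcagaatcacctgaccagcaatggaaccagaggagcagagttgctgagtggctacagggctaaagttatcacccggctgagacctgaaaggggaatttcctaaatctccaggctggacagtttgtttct
Nr1d2 (chr15:9954784-9955083, plus strand): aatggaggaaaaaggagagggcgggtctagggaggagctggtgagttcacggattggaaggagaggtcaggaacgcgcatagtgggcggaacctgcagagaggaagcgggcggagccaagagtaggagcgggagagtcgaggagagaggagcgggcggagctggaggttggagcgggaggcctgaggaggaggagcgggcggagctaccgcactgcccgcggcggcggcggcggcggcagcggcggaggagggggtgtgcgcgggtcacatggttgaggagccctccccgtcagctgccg
Per2 (chr9:99496944-99497243, minus strand): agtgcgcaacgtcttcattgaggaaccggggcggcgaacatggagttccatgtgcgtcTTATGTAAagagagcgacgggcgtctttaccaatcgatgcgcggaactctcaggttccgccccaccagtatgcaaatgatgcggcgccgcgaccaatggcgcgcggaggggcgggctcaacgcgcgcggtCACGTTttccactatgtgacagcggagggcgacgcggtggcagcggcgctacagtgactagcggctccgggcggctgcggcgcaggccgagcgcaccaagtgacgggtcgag
Dbp (chr1:105312006-105312305, plus strand): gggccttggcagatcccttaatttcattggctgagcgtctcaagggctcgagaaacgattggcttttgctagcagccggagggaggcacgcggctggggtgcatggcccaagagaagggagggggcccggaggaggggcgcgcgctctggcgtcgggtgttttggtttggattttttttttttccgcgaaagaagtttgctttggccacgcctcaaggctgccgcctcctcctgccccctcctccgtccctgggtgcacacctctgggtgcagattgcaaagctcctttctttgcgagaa
Npas2 (chr9:48959315-48959614, plus strand): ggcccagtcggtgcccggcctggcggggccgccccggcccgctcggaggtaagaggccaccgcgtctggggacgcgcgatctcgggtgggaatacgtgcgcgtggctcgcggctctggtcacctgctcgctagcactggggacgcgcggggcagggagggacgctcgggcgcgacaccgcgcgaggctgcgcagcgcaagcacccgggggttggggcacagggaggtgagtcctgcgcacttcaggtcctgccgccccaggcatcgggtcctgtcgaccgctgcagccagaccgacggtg
Bmal1 (chr1:176766078-176766377, plus strand): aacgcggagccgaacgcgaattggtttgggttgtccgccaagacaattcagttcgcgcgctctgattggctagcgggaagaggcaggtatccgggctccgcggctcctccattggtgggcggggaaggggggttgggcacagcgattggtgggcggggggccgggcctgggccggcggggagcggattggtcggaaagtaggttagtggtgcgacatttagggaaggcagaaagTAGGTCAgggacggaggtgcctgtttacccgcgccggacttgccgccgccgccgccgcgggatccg
The E-box of Tef began 198 bases before the start and that of Nr1d1 191 bases before it. In Per2 the D-box began 192 bases and the E′-box 62 bases before the start, and in Bmal1 the ROR element began 16 bases before it. Among all 33469 windows of this length, 6.42% held the E-box, 4.83% the E′-box, 1.01% the D-box and 2.63% the ROR element. Of the 9 members with a window, 2 held the E-box, 3 the E′-box (Per2, Cry2 and the other window of Nr1d1), 1 the D-box and 0 the ROR element. A match is a description of letters, and no match says only that these letters are not in this window.

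Levels are log2 signal minus the array's own 75th percentile. The 16 arrays lay on 4 slides, and on each the HFT pair took positions 3 and 4 and the HF pair positions 1 and 2, which leaves slide balanced and means that position and group cannot be told apart. Arrays had a 75th percentile of 753 to 1366 signal units, 68.3% to 73.5% of probes were well above background on an array, and no spot was saturated. The number of arrays limits the precision. All 6 adipocyte markers with a probe, of 7 listed, were well above background on every array. Genes of neighbouring tissues set 6 arrays apart. On the 4 of 13 epididymal epithelium genes that passed the filter, the median stood 4.14 to 4.24 log2 units above the median array on HFT 23, HFT 28 and HF 8 and -0.51 to 1.39 units on the other 13 arrays. Of these 4 genes Lcn5 and Lcn10 varied most, from -6.23 to 4.12 and from -6.30 to 2.11 in HFT. Adam7 and Defb22 varied far less, from -3.62 to -2.35 and from -5.09 to -4.55 in HFT. The epididymal markers Lcn9, Cst11, Rnase9 and Spink13 were not well above background on any array. On the 6 kept urothelial genes of 8 listed, HFT 22, HFT 24 and HF 35 stood 6.84 to 8.14 units high and the others -0.54 to 2.05. On the whole list of 13 epididymal genes, the score chosen first, HFT 23, HFT 28 and HF 8 stood only 0.79, 2.60 and 1.08 units high, none of them past the threshold of 3, so the score over kept genes and the set of 6 arrays were chosen after seeing the data. The 3 arrays high on urothelial genes passed on the whole list too. Over kept genes, the epididymal score ran from -0.51 to 4.24 in HFT and from -0.20 to 4.17 in HF, and the urothelial score from -0.54 to 7.99 in HFT and from -0.24 to 8.14 in HF. Several results below are also given without these 6 arrays, as n = 10. The other 10 arrays were not free of genes of other tissues. A hepatocyte score, the median over 9 genes relative to the median array, was not used to choose arrays. It ran from -1.55 to 3.21 in HFT and from -1.56 to 3.60 in HF. It was highest in HF 10 and HFT 36, which stayed among the 10. In such bulk tissue, fewer cells of a type and less RNA per cell cannot be told apart.

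The members differed unequally between animals. With SD taken within groups, the median kept probe had an SD of 0.26 log2 units. Of the 10 members, 7 lay above that value. Nr1d1 was the most variable, with an SD of 0.86, above 93.3% of kept probes, and its highest animal read 6.86 times its lowest. Nr1d2, Dbp and Npas2 followed with SDs of 0.53, 0.48 and 0.42, above 86.0%, 83.1% and 77.7% of kept probes, and Tef and Per2 lay above 73.5% and 69.6%. Cry1 was above 60.8%, whereas Per3, Per1 and Cry2 lay below the median, at 45.9%, 43.4% and 40.6%. For Npas2 and Per3 this order depended on the probe. A further Npas2 probe had an SD of 0.23, above 40.5% of kept probes. The other Per3 probes had SDs of 0.38 and 0.39, above 73.4% and 74.7%.

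**Figure D1:**
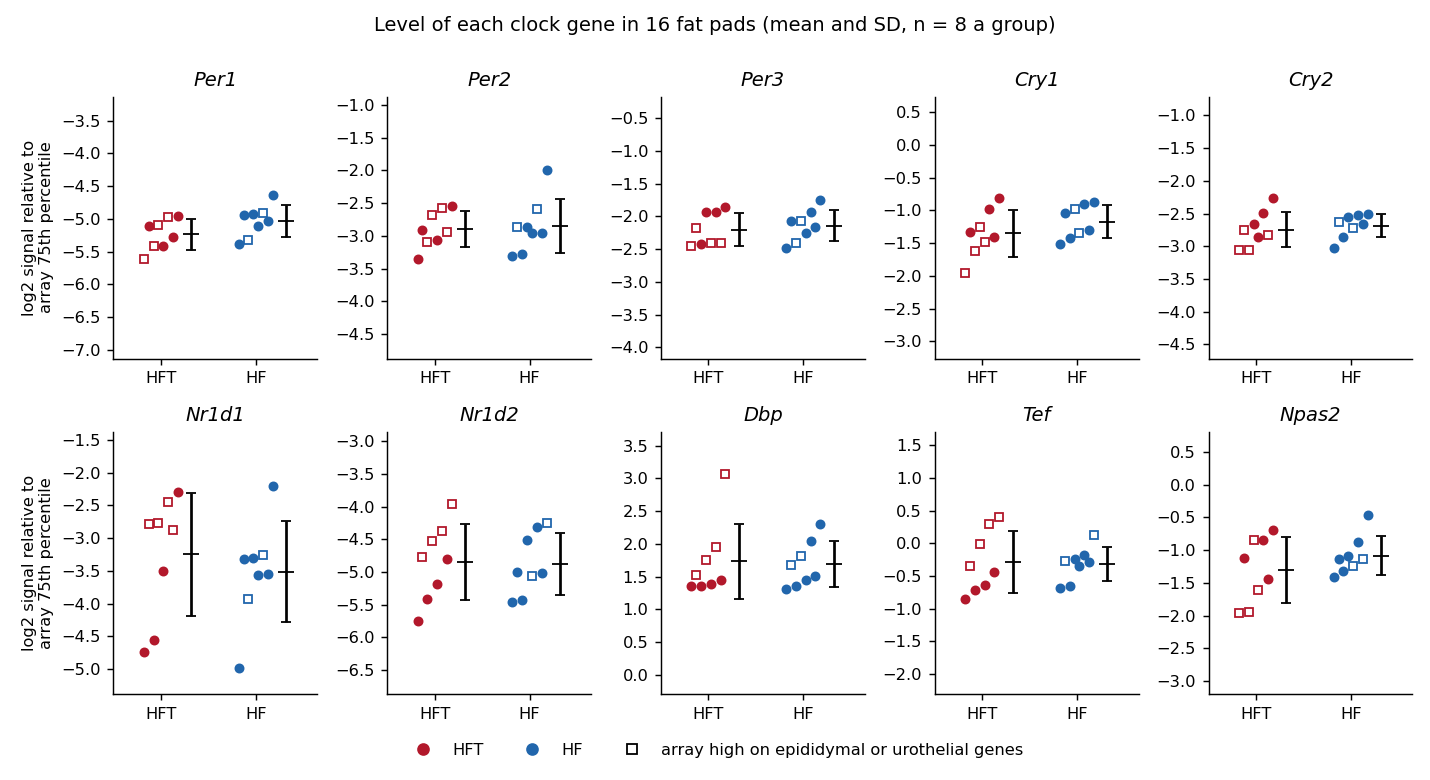
Level of each of the 10 members in every animal, as log2 signal relative to the array's 75th percentile, with HFT (red) left of HF (blue). Points are animals, squares the 6 arrays high on epididymal or urothelial genes, and black bars the mean and SD of 8 animals. All panels span the same number of log2 units. The 2 groups overlap in every panel, and Nr1d1 has the widest spread.

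The comparison of HFT with HF asks whether the extract given to the mothers altered the fat pad of their sons. For no member was the difference between the groups larger than the spread within them. By limma over 21808 probes with Benjamini-Hochberg adjustment, 0 probes were called higher and 0 lower (0% each), 2.36% had an unadjusted p under 0.05, and 56.2% had a difference below 0. Of the 10 members, 0 were called, 0 had an unadjusted p under 0.05, and 6 had a difference below 0, a share near that of all probes. The median difference, HFT minus HF, was -0.05 over the members and -0.02 over all kept probes. The adjusted p of every member was 0.999994.

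Among the repressors of the loop, Per1, a PAS-domain inhibitor of BMAL1 and CLOCK, had the smallest unadjusted p. Its level ran from -5.61 to -4.96 with a median of -5.20 in HFT, and from -5.39 to -4.63 with a median of -4.99 in HF. The groups overlapped, and 2 of 8 HFT animals lay above the HF mean. The difference was -0.20 (SE 0.12, 95% interval -0.45 to 0.05, unadjusted p = 0.114 by limma over all probes).
Per2, a period protein that acts together with the cryptochromes, ran from -3.35 to -2.54 (median -2.92) in HFT and from -3.31 to -1.997 (median -2.91) in HF. These ranges overlapped almost wholly, and the highest HF animal, HF 12, stood apart from the others. The difference was -0.04 (SE 0.17).
Per3 ran from -2.46 to -1.86 (median -2.29) in HFT and from -2.48 to -1.75 (median -2.12) in HF, with a difference of -0.06 (SE 0.12). Cry1, the cryptochrome that holds the loop in its late repressive phase, ran from -1.96 to -0.81 (median -1.37) in HFT and from -1.51 to -0.87 (median -1.17) in HF. Cry1's groups overlapped, its lowest animal being HFT 22, and the difference was -0.18 (SE 0.15, 95% interval -0.50 to 0.14). Cry2 ran from -3.06 to -2.27 (median -2.79) in HFT and from -3.02 to -2.51 (median -2.64) in HF, with a difference of -0.06 (SE 0.11).

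The nuclear receptors varied far more within groups than between them. Nr1d1, which encodes REV-ERB alpha, ran from -4.74 to -2.30 with a median of -2.83 in HFT, and from -4.98 to -2.20 with a median of -3.43 in HF. Both groups spanned nearly the whole range, and HFT 27, HFT 26 and HF 10 lay well below the other 13 animals. The difference of 0.27 was the largest among the members but smaller than its SE of 0.40 (95% interval -0.59 to 1.12). By slide, with 2 animals against 2, it was 0.85, 1.17, -0.17 and -0.79. Nr1d2, which encodes REV-ERB beta, ran from -5.75 to -3.96 (median -4.78) in HFT and from -5.45 to -4.26 (median -5.01) in HF, with a difference of 0.03 (SE 0.25).

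Of the D-box factors, Dbp read 1.36 to 3.06 (median 1.49) in HFT and 1.31 to 2.30 (median 1.60) in HF. HFT 24 was the highest animal by far, and the groups otherwise overlapped. The difference was 0.05 (SE 0.23). Without HFT 24 it was -0.14. Tef, a PAR bZIP factor related to Dbp, ran from -0.85 to 0.40 (median -0.39) in HFT and from -0.68 to 0.12 (median -0.27) in HF, with a difference of 0.03 (SE 0.18).
Npas2, the member of the activating limb, ran from -1.96 to -0.69 (median -1.28) in HFT and from -1.41 to -0.46 (median -1.14) in HF. The ranges overlapped, and HFT 24, HFT 28 and HFT 23 were the lowest 3 animals of the 16. Its difference was -0.22 (SE 0.20, 95% interval -0.64 to 0.20), and by slide -0.08, -1.03, -0.12 and 0.34. On the further Npas2 probe the difference was 0.0066 (SE 0.11), and by slide -0.19, -0.13, 0.07 and 0.27, so the difference of Npas2 depended on the probe. Without the 6 arrays high on epididymal or urothelial genes, 8 of the 10 members' differences changed sign, to 0.07 for Per3, 0.04 for Cry1, 0.12 for Cry2, -0.29 for Nr1d1, -0.33 for Nr1d2, -0.27 for Dbp, -0.26 for Tef and 0.03 for Npas2.

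The members' clearest pattern lay across animals, whatever the group. Animals low in Npas2 were high in Tef, Nr1d2, Nr1d1 and Dbp. On the probes of highest signal, Per1, Per2, Per3 and Cry2 showed only weak relations to Npas2. For Per3 and Cry2 this depended on the probe. The other Per3 probes had r of -0.40 and -0.66 with Npas2, and the further Npas2 probe gave 0.63 for Per3 and 0.61 for Cry2. Npas2 was lowest in HFT 28 (-1.96), HFT 24 (-1.95) and HFT 23 (-1.60), and Tef was highest in HFT 28 (0.40) and HFT 24 (0.30). At the other end Npas2 was highest in HF 10 (-0.46), HFT 26 (-0.69) and HFT 27 (-0.84), and these 3 animals had the lowest Nr1d1 (HF 10 -4.98, HFT 27 -4.74, HFT 26 -4.56) and the lowest Tef (HFT 27 -0.85, HFT 26 -0.71, HF 10 -0.68). HFT 22 came next in Npas2, at -0.844 and almost level with HFT 27, but departed from this match. Its Nr1d1 was -2.78, above the median of -3.31 over all animals. Without HFT 22, Nr1d1's r with Npas2 was -0.74.

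Tef had the strongest relation to Npas2 among the members. Across 16 animals Pearson's r was -0.80 (two-sided permutation p = 0.00034, 100000 resamples) and Spearman's rho was -0.80 (p = 0.00041). Ranked from the most negative r, Tef stood at place 2 of 21806 probes. Without the 2 animals farthest from the median Npas2 level, HFT 28 and HFT 24, r was -0.61. For Nr1d2, r was -0.71 (permutation p = 0.00203), rho -0.64 (p = 0.00808) and the place 12. With normexp background correction Nr1d2's r was only -0.41 (limma adjusted p = 0.292), whereas Tef's was -0.79. For Nr1d1, r was -0.67 (permutation p = 0.00438), rho -0.58 (p = 0.0208) and the place 35. Dbp had r = -0.65 (permutation p = 0.00576), rho = -0.57 (p = 0.022) and the place 58. Without HFT 28 and HFT 24, r was -0.57 for Nr1d2, -0.65 for Nr1d1 and -0.40 for Dbp, so Dbp's relation leaned most on those 2 animals. An r of -0.5 or lower was found for 2.06% of all probes, and one of 0.5 or higher for 8.15%.

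In the limma regression of every kept probe on the Npas2 level, adjusted over 21806 probes, none of these 4 passed, with adjusted p of 0.254 for Tef, 0.288 for Nr1d2, 0.298 for Nr1d1 and 0.325 for Dbp. Of all probes 0 (0%) were called negative and 2 (0.00917%) positive, so 0 of 9 members called stood against a background near 0. At an unadjusted p under 0.05, 2.62% of probes were negative and 8.08% positive. The other members had r of -0.29 (Per2), -0.02 (Per1), 0.20 (Per3), 0.30 (Cry2) and 0.46 (Cry1), and their permutation p ran from 0.0721 for Cry1 to 0.939 for Per1. Cry1's rho was 0.51 (p = 0.0462).

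The pattern held its direction within each group. Within the 8 HFT animals r with Npas2 was -0.91 for Tef, -0.83 for Nr1d2, -0.60 for Nr1d1 and -0.72 for Dbp. Within the 8 HF animals it was -0.55, -0.55, -0.81 and -0.49 for the same genes in that order. With group and slide taken out, r was -0.89 for Tef, -0.86 for Nr1d2, -0.71 for Nr1d1 and -0.70 for Dbp. Per3 and Cry2 had opposite signs in the groups, 0.49 and 0.55 in HFT against -0.39 and -0.42 in HF, a difference that was not tested.

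**Figure D2:**
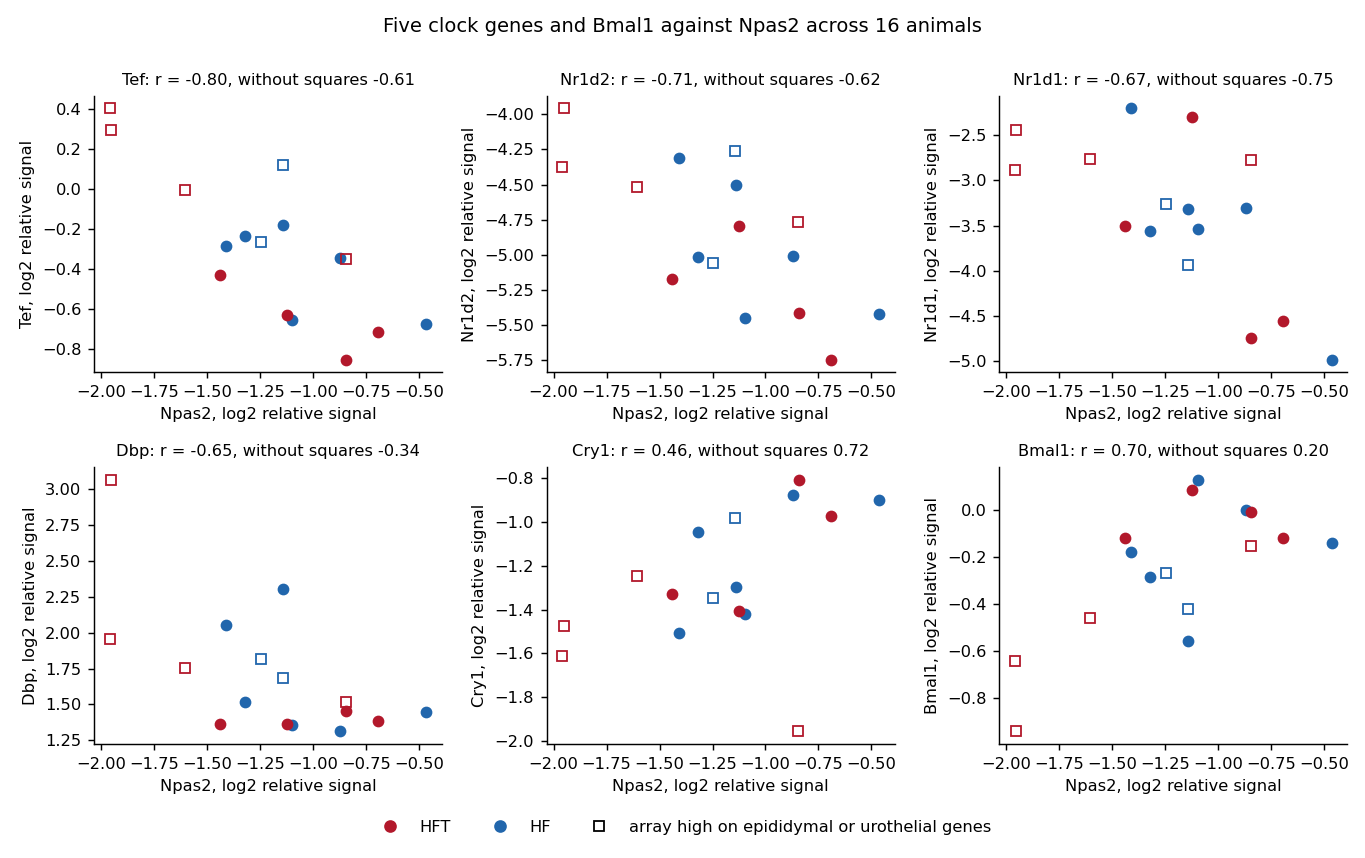
Levels of Tef, Nr1d2, Nr1d1, Dbp, Cry1 and Bmal1 (vertical axes) against the level of Npas2 (horizontal axes) in 16 animals, all as log2 signal relative to the array's 75th percentile. HFT is red, HF blue, and squares mark the 6 arrays high on epididymal or urothelial genes. Tef, Nr1d2, Nr1d1 and Dbp are lower where Npas2 is higher, with r of -0.80, -0.71, -0.67 and -0.65, and 5 of the 6 squares are among the 8 animals lowest in Npas2.

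The 6 arrays high on genes of neighbouring tissues were unevenly placed along this pattern. All 6 were among the 8 arrays highest in Dbp, the others being HF 9 and HF 14. HF 9 also had the highest smooth muscle and skeletal muscle scores, 3.36 and 3.62 log2 units above the median array. Of the 6, 5 were among the 8 highest for each of Tef, Nr1d1 and Nr1d2, and 5 were among the 8 lowest for Npas2 and for Bmal1. In the 10 other animals r with Npas2 was -0.75 for Nr1d1 (permutation p = 0.0138), -0.62 for Nr1d2 (p = 0.0554), -0.61 for Tef (permutation p = 0.0613) and -0.34 for Dbp (permutation p = 0.353). Cry1's r was 0.72 there (permutation p = 0.0225), and Bmal1's was 0.20 against 0.70 in all 16. These 10 included HF 10 and HFT 36, which had hepatocyte scores of 3.60 and 3.21, and HF 10 had the highest Npas2 and the lowest Nr1d1. The part of the hepatocyte genes was not tested. The part of the neighbouring tissues in the pattern of Dbp and Bmal1 was not tested beyond these values.

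The adipocyte score, the median over the 6 markers relative to the median array, was set beside these genes as well. It ran from -0.71 to 0.28 in HFT and from -0.78 to 0.47 in HF. It lay below 0 on 7 of the 8 arrays highest in Dbp and above 0 on 7 of the 8 lowest, although r with Dbp was only -0.31 (permutation p = 0.243) and rho -0.47 (p = 0.0669). For Bmal1 r was 0.56 (permutation p = 0.0241) and rho 0.55 (p = 0.0288), and for Tef r was -0.56 (permutation p = 0.026) and rho -0.48 (p = 0.0659). For Cry2 r was 0.55 (permutation p = 0.0282) and rho 0.51 (p = 0.0437), and for Per1 r was 0.49 (permutation p = 0.0521) and rho 0.43 (p = 0.101). Adjusted over the 11 genes set against this score, the permutation p-values of r were 0.382 for Dbp, 0.0775 for Bmal1, Tef and Cry2, and 0.115 for Per1. Nr1d2, Npas2 and Nr1d1 had r of -0.38, 0.21 and 0.08 with the score. The Per3 probe of highest signal was the one that passed, with r = 0.73 (permutation p = 0.00097, adjusted p = 0.0107) and rho = 0.69 (p = 0.0041), and r was 0.63 without the 2 animals farthest from the median Per3 level. Without the 6 high arrays r with the score was 0.67 for Per3 (permutation p = 0.0215), 0.56 for Bmal1 (p = 0.11) and -0.46 for Dbp (p = 0.189). It was -0.09 for Tef, 0.55 for Cry2 (permutation p = 0.099) and 0.23 for Per1. By rank, rho was 0.59 for Per3 (permutation p = 0.0803), -0.07 for Bmal1 (p = 0.866) and -0.02 for Dbp (p = 0.972). For Tef, Cry2 and Per1 rho was 0.35, 0.22 and 0.37 (permutation p = 0.33, 0.536 and 0.296). The part of adipocyte content in these relations was not tested.

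The further Npas2 probe followed the main one with r of only 0.50. Set against that probe, r was -0.64 for Tef, -0.55 for Nr1d1, -0.52 for Nr1d2 and -0.20 for Dbp, and 0.63 for Per3, 0.61 for Cry2 and 0.58 for Cry1. On that probe 249 probes (1.14%) were called positive and 18 (0.0825%) negative, with none of these 4 negative members among them, and 5.18% had an r of -0.5 or lower and 16.2% one of 0.5 or higher. The relation of Dbp to Npas2 thus depended on the probe, whereas Tef, Nr1d1 and Nr1d2 kept an r of -0.52 or lower with both.

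**Figure D3:**
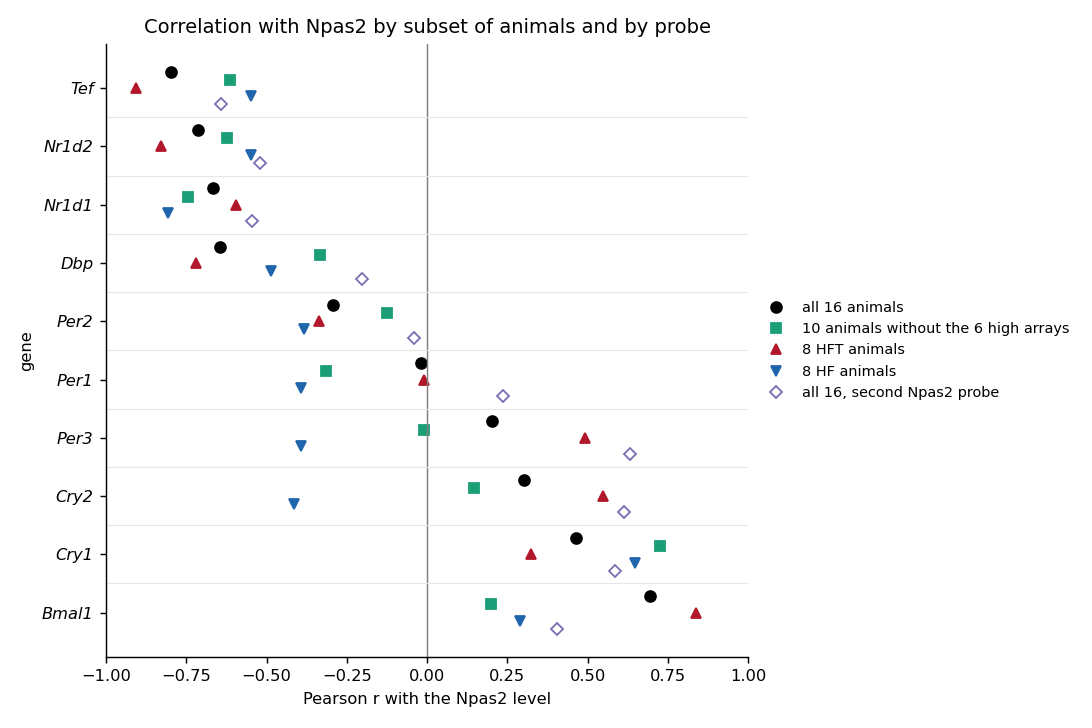
Pearson r of 9 members and Bmal1 with the Npas2 level (horizontal axis) in all 16 animals, in the 10 without the 6 arrays high on epididymal or urothelial genes, in the 8 HFT and the 8 HF animals, and in all 16 with the further Npas2 probe. Every marker of Tef, Nr1d2, Nr1d1 and Dbp lies below 0, whereas Per3 and Cry2 lie on both sides.

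Dbp was taken as a second gene against which the others were set. Whether its level stands for clock phase was not tested, since the hour of killing is not given. The 3 Dbp probes moved together, with r of 0.98 to 0.99, from the lowest animal HF 11 at 1.31 to HFT 24 at 3.06. Nr1d2 and Tef were higher where Dbp was higher, with r of 0.75 (permutation p = 0.00018) and rho of 0.72 (p = 0.00236) for Nr1d2, and r of 0.69 (permutation p = 0.00238) and rho of 0.71 (p = 0.00263) for Tef. Nr1d1 had r = 0.45 (permutation p = 0.0744). Without the 6 high arrays r with Dbp was 0.74 for Nr1d2 (permutation p = 0.0164), 0.61 for Tef (p = 0.0552) and 0.34 for Nr1d1 (p = 0.342). By rank the relations were weak there, with rho of 0.38 (permutation p = 0.276), 0.37 (p = 0.296) and -0.08 (p = 0.838) in that order. Of all probes, 6.31% had an r with Dbp of 0.5 or higher and 7.09% one of -0.5 or lower. For Per2, r was 0.33 (permutation p = 0.2) and rho 0.58 (p = 0.0197), and Per1 and the Per3 probe of highest signal had r of 0.16 and -0.15. Adjusted over 21805 probes by limma, 1 probe was called positive (0.00459%) and 2 negative (0.00917%), and none was a member's: the adjusted p was 0.161 for Nr1d2, 0.175 for Tef and 0.190 for Npas2.

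The strongest relation of Dbp to any clock gene was with Bmal1, the partner of CLOCK and NPAS2. Bmal1 ran from -0.94 to 0.09 (median -0.14) in HFT and from -0.56 to 0.13 (median -0.22) in HF. It was lowest in HFT 24, which was highest in Dbp, and highest in HF 13. Across 16 animals r was -0.87 (permutation p = 5e-05) and rho -0.89 (p = 2e-05). Bmal1 stood at place 4 from the most negative r of 21805 probes, with an adjusted p of 0.0552. Without the 2 animals farthest from the median Dbp level, HFT 24 and HF 9, r was -0.73. In the 10 animals without the high arrays it was -0.79 (permutation p = 0.0107), and it was -0.92 within HFT and -0.75 within HF.

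A regression on the Bmal1 level itself was added after these values were seen. Dbp, Tef and Nr1d2 were lower where Bmal1 was higher, with r of -0.87, -0.87 and -0.74 and adjusted p of 0.0245, 0.0245 and 0.0431 by limma over 21806 probes. In that regression 187 probes (0.858%) were called negative and 313 (1.44%) positive, and 3 of 10 members were called negative. Nothing is read from that count, since Bmal1 was taken up for its relation to Dbp and Dbp's r here is that same value. An r of -0.5 or lower with Bmal1 was found for 7.78% of probes. Per log2 unit of Bmal1, the fitted change was a log2 difference of -1.40 in Dbp (95% interval -1.84 to -0.96), -1.11 in Tef (95% interval -1.47 to -0.74) and -1.32 in Nr1d2 (95% interval -1.97 to -0.68). Npas2 had r = 0.70 with Bmal1 (permutation p = 0.0027) and did not pass the adjustment (adjusted p = 0.0548). Per2 had r = -0.51 (permutation p = 0.0443, limma adjusted p = 0.175) and rho = -0.64 (permutation p = 0.00801). Nr1d1 had r = -0.31 (permutation p = 0.251), unlike its closer relation to Npas2. Without the 6 high arrays 0 probes were called, and the adjusted p was 0.360 for Dbp, 0.388 for Tef and 0.535 for Nr1d2, with r of -0.79, -0.67 and -0.46. Without HFT 36 the adjusted p of all 3 was 0.0669, and without HFT 28 that of Tef was 0.0789. With array weights they were 0.0718, 0.0718 and 0.105, and with group and slide in the model Tef's was 0.0880 and Nr1d2's 0.115. Nr1d2's call was lost when any of 12 single arrays was left out, with adjusted p from 0.0510 to 0.0954.

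Among the 45 pairs of members, 14 had an unadjusted permutation p under 0.05, of which 8 were positive and 6 negative. The pairs share genes, the share over all pairs of probes was not computed, and nothing is read from that count. For scale, 2.06% of all probes had an r of -0.5 or lower with Npas2 and 8.15% one of 0.5 or higher. With Dbp these shares were 7.09% and 6.31%. Nr1d2 and Tef formed the tightest pair, with r = 0.85 and rho = 0.84 (permutation p = 1e-05, the smallest that 100000 resamples can give, and 0.0001), and r = 0.76 without the 6 high arrays. The paralogues Nr1d1 and Nr1d2 had r = 0.71 (permutation p = 0.00197) and rho = 0.64 (p = 0.0095). Cry1 ran against Nr1d1 with r = -0.74 (permutation p = 0.00118) and rho = -0.73 (p = 0.00224), and without the 6 arrays r was -0.78. Cry1 and Cry2 had r = 0.60 (permutation p = 0.0142) and rho = 0.51 (p = 0.0457), which was 0.31 without the 6 arrays. Per3 and Cry2, 2 members of small spread on the probes used, had r = 0.76 (permutation p = 0.00069) and rho = 0.78 (p = 0.00064). This was the Per3 probe of highest signal, which the other Per3 probes followed with r of only 0.18 and 0.03. Its slide means rose from slide 1 to slide 4 (-2.44, -2.26, -2.09, -1.90), and Cry2's rose in the same order (-2.89, -2.75, -2.62, -2.59). The part of slide in this pair was not tested. Per1 and Per2, by contrast, had r = 0.39 (permutation p = 0.141) and rho = 0.28 (p = 0.302). Against Dbp, Tef and the NR1D genes r ran from -0.22 to 0.16 for Per1 and from -0.22 to 0.37 for Per2. By rank, however, Per2 rose with Dbp, with rho = 0.58 (permutation p = 0.0197). Without the 6 arrays that rho was 0.77 (permutation p = 0.0123), where r was 0.18.

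**Figure D4:**
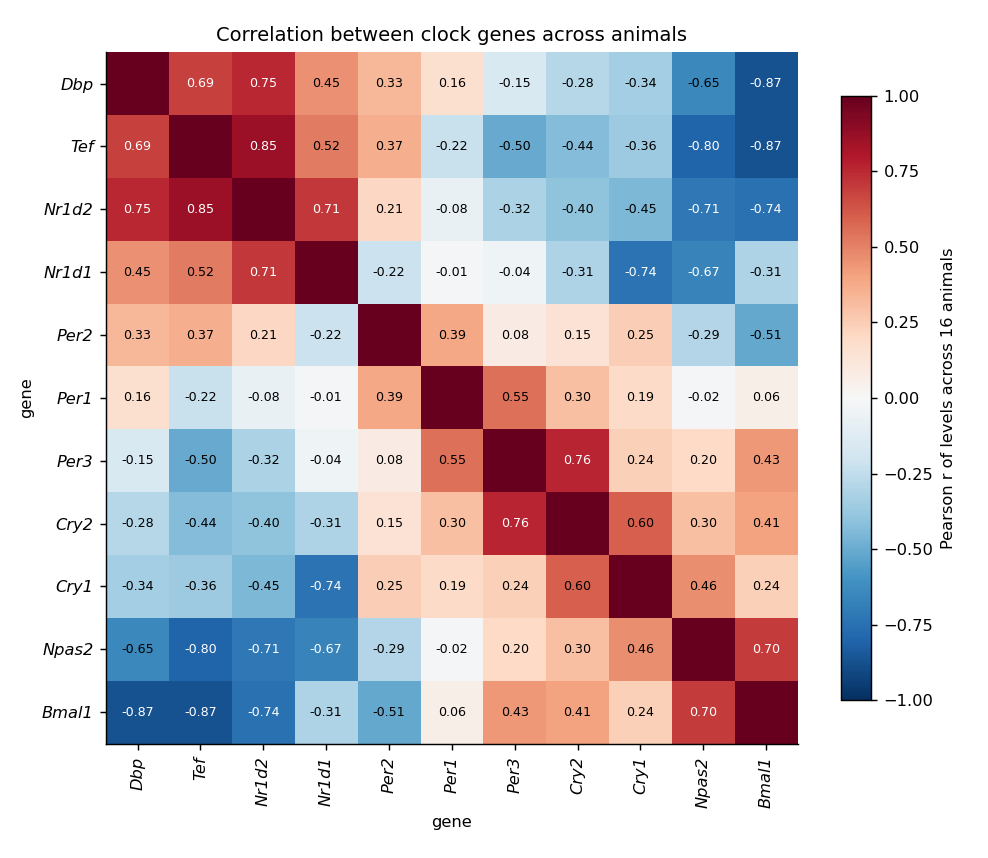
Pearson r between the levels of every pair of the 10 members and Bmal1 across 16 animals, from -1 (blue) to 1 (red). Dbp, Tef, Nr1d2 and Nr1d1 form a positive block (r of 0.45 to 0.85) that is negative against Npas2 and Bmal1.

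No probe of a member was called for slide, a share near that of all probes. In limma's F test for slide with group in the model, 368 of 21808 probes were called (1.69%) and 18.6% had an unadjusted p under 0.05, while 0 of the members' 15 probes were called. The Per3 probe of highest signal came nearest. Its mean was -2.44 on slide 1, -2.26 on slide 2, -2.09 on slide 3 and -1.90 on slide 4 (F = 8.39, unadjusted p = 0.00233, adjusted p = 0.0800). Without HFT 28 the adjusted p was 0.0174, and with array weights 0.00337. The other Per3 probes showed no such steps, with unadjusted p of 0.748 and 0.976, and they followed the first with r of only 0.18 and 0.03 but each other with r = 0.69. Those other probes had r of -0.40 and -0.66 with Npas2 and 0.58 and 0.63 with Dbp, where the probe of highest signal had 0.20 and -0.15. Statements on Per3 therefore depend on the probe, and the reason was not tested. The further Npas2 probe had slide means of -3.07, -2.73, -2.89 and -2.68 (unadjusted p = 0.0428, adjusted p = 0.252), whereas those of the main Npas2 probe lay between -1.27 and -1.16 (unadjusted p = 0.985). For the other 8 members the unadjusted p for slide ran from 0.254 (Cry2) to 0.861 (Dbp).

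**Figure D5:**
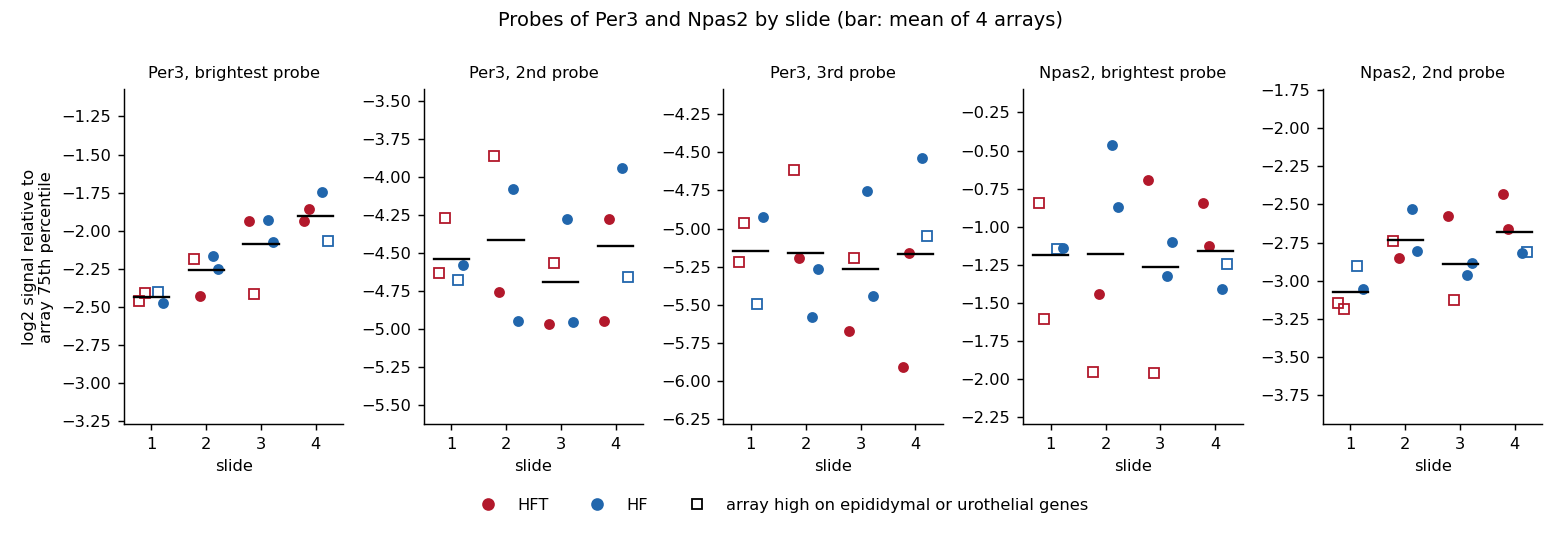
Levels of the 3 Per3 probes and the 2 Npas2 probes by slide, as log2 signal relative to the array's 75th percentile. HFT (red) stands left of HF (blue) within a slide, squares are the 6 arrays high on epididymal or urothelial genes, and bars the mean of 4 arrays. The Per3 probe of highest signal steps up over the slides, with means of -2.44 to -1.90, and the other 2 do not.

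The other genes of the clock gave the same picture for HFT against HF. Of 19 listed genes 13 had a probe and 12 passed the filter. Ciart, well above background on 1 array, did not pass, and those not analysed here include Rora, Rorb, Hlf, Bhlhe41 and Fbxl21. Of the 12, 3 had a difference above 0 and 9 below, where 56.2% of all probes lay below 0. An unadjusted p under 0.05 was found for 0 of them (2.36% of all probes), and the median difference was -0.09. Differences ran from -0.17 for Nfil3, the D-box repressor, to 0.14 for Nampt, the rate-limiting enzyme of NAD salvage. Bmal1, Clock, Bmal2, Bhlhe40, Csnk1d, Csnk1e, Wee1, Usp2 and Timeless lay between them.

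Across animals, none of these genes was called in the regression on Npas2. Nfil3 had r = 0.78 with Npas2 (permutation p = 0.0005) and rho = 0.72 (p = 0.00265), place 33 from the most positive, with an adjusted p of 0.254. Without the 6 high arrays its r was 0.57 (permutation p = 0.0898). In limma's regression Wee1, a cell cycle kinase under clock control in mouse liver, had r = -0.55 (adjusted p = 0.439). For Clock, the 2 kept probes had r of 0.33 and 0.72. The 7 genes Bmal2, Bhlhe40, Csnk1d, Csnk1e, Usp2, Nampt and Timeless had r between -0.21 and 0.43.

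By the rule of naming the genes most like a member over the 16 animals, Npas2 was most closely followed by Emc9 (r = 0.90), Adrb3 (0.89), Vom2r46 (0.88), Peg12 (0.84) and Cilk1 (0.83). Adrb3, the beta-3 adrenergic receptor of fat cells, and Vom2r46 were the 2 probes called in the regression on Npas2 (adjusted p = 0.0200 each, limma). The named genes most opposed to Npas2 other than members were Wfs1 (-0.79), Ces2c (-0.79), Erbb3 (-0.77), Atp6ap2 (-0.74) and Atp11a (-0.74). Dbp was most closely followed by Spmip2 (r = 0.87), Aen (0.83), Rps27a (0.79), Ifrd2 (0.79) and Odad4 (0.78), and opposed by Cxcr2 (-0.89), Fggy (-0.89), Cldn5 (-0.88), Bmal1 (-0.87) and Btg1 (-0.85). Spmip2, Cxcr2 and Cldn5 were called (adjusted p = 0.0414, 0.0237 and 0.0414, limma). Without the 6 high arrays none of these 5 calls remained, with adjusted p from 0.314 to 0.584, and Spmip2 was well above background on only 12 arrays. With normexp Spmip2's r was 0.52 (adjusted p = 0.347), Cxcr2 and Cldn5 had an adjusted p of 0.0590 each and Vom2r46 one of 0.0512, while Erbb3's r with Npas2 was only -0.19. Leaving out single arrays in turn lost the call of Spmip2 in 13 of 16 cases, of Cldn5 in 11, of Cxcr2 in 6, and of Adrb3 and Vom2r46 in 5 each. With the further Npas2 probe r was 0.51 for Adrb3 and 0.33 for Vom2r46.

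Per1 also answers to glucocorticoids and to cell stimulation, so those lists were set beside it. Of all probes, 56.2% had a difference below 0. Of 11 kept glucocorticoid-responsive genes 1 had a difference above 0 and 10 below, with a median of -0.33. Of these 1, Sgk1, had an unadjusted p under 0.05, as did 2.36% of all probes. Sgk1, a kinase induced by glucocorticoids, ran from -1.22 to -0.42 (median -0.81) in HFT and from -0.73 to 0.05 (median -0.51) in HF. The groups overlapped, though 0 of 8 HFT animals lay above the HF mean, and the difference was -0.40 (SE 0.14, unadjusted p = 0.0110 by limma, adjusted p = 0.999994). Fkbp5, Tsc22d3 and Zbtb16, further targets of the receptor, differed by -0.00014, 0.06 and -0.33. Of 11 kept immediate early genes, the transcripts induced within minutes of stimulation, 0 lay above 0 and 11 below, with a median of -0.71, and 5 had an unadjusted p under 0.05 (2.36% of all probes did), but 0 passed adjustment. Fos, Egr1, Junb and Nr4a1 differed by -1.08, -0.83, -0.90 and -0.71.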

How the data were processed

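The authors deposited scanner intensity values from Agilent Feature Extraction 10.7.3.1, per the file headers and the submitters' processing notes, from total RNA labelled with Cy3, per the labels. The processed intensity is background-subtracted and detrended by that software, per the file headers, and the 0 or 1 quality marks of spots come from it too. The authors' deposited log2 values, of unstated normalization, served only as an alternative.

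Each array's 75th percentile was subtracted from log2 processed intensity. Of 62976 spots per array, 4259 controls and spots marked as not uniform or as outliers were left out, and the spots of a probe were averaged. A probe was kept if at least 4 of the 8 arrays of either group had it well above background. Accessions were matched, without version, to RefSeq genes (GRCr8). limma 3.58.1 in R 4.3.3 (with the data.table package, version 1.17.8) gave every fit, with Benjamini-Hochberg adjustment over all kept probes and a threshold of 0.05. Regressions on a gene's level left out that gene's own probes. Permutation p-values used 100000 resamples (numpy 2.4.6, Python 3.11.15). Fits were tested on simulated data. Normexp correction (offset 50) used median spot intensities, because mean spot intensities were not among the columns. Alternatives are given in the closing section.

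The members and lists were chosen with earlier results of these data known. All 10 members, the other clock genes (some of which are counted in the list but not reported here by name), the 5 genes most like and most unlike Npas2 and Dbp, and the first 4 listed genes of the glucocorticoid and immediate early lists are named. The regressions on Bmal1 and on the further Npas2 probe, the fit without 6 arrays, and the relations to the adipocyte score, were added after seeing the data.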

Additional observations from a re-analysis of the deposited data

Results flagged for a closer look

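Among 20 combinations of a member and a group, 1 animal stood apart from the other 7 of its group by Dixon's ratio, a test that chance passes in about 1 of 20 groups. Dbp read 3.06 in HFT 24, where the next highest HFT animal was HFT 28 at 1.96 and the lowest 1.36, a ratio of 0.65, above the 95% critical value for 8 animals. All 3 Dbp probes were highest in HFT 24, at 3.06, 2.49 and 1.72. That animal also had the highest Nr1d2 (-3.96) and the lowest Bmal1 (-0.94) of the 16, and it was 1 of the 3 arrays high on urothelial genes, with a score of 7.99. Without HFT 24, r was -0.49 between Dbp and Npas2, against -0.65 with it, and -0.78 between Dbp and Bmal1, against -0.87 with it.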

How the results depend on the processing

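The count for HFT against HF was 0 under every alternative run, leave-outs included. The slide count of 368 became 102 with normexp, 172 with no filter, 5825 with array weights and 1 without the 3 arrays high on the whole urothelial list; leaving out 1 animal gave 7 (without HFT 36) to 1100 (without HFT 28). The Npas2 count of 2 became 1 with normexp, with the deposited log2 table, with a filter on all 16 arrays and with array weights, 0 without the urothelial arrays, without the 6 high arrays and with group and slide, and 267 with the further probe; leave-outs gave 0 to 3. The Dbp count of 3 became 0 with normexp, without the urothelial arrays, without the 6 arrays and with group and slide, 1 with quantile normalization and with no filter, and 2710 with weights; leave-outs gave 0 to 7. The Bmal1 count of 500 became 3001 with quantile normalization, 2152 with the deposited table, 79 with no filter, 0 with weights and without the 6 arrays, 1960 without the urothelial arrays and 13 with group and slide; leave-outs gave 0 (without HFT 36) to 1962 (without HFT 24).

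Differences of HFT against HF that changed sign were, with normexp, Nr1d2 at -0.039; with weights, Nr1d2 at -0.045, Nr1d1 at -0.0085 and Tef at -0.064; without the urothelial arrays, Nr1d2 at -0.15, Dbp at -0.12 and Tef at -0.050; and without the 6 arrays, Per3 at 0.069, Cry1 at 0.045, Cry2 at 0.12, Nr1d1 at -0.29, Nr1d2 at -0.33, Dbp at -0.27, Tef at -0.26 and Npas2 at 0.026. Leave-outs gave -0.11 to 0.080 for Per2, -0.093 to 0.16 for Nr1d2, -0.14 to 0.13 for Dbp and -0.069 to 0.11 for Tef. Per1's r with Npas2 became 0.54 with normexp, 0.19 with quantile normalization, 0.13 with the deposited table, 0.17 without the urothelial arrays and 0.24 with the further probe, and ran from -0.35 to 0.082 over leave-outs; Per3's became -0.010 without the 6 arrays. With Dbp, Per1's r became -0.094 with normexp, -0.15 with quantile normalization, -0.11 with the deposited table and -0.038 without the urothelial arrays, and Clock's became -0.025, -0.14 and -0.092 with the first 3 of these, -0.011 with weights and -0.057 with group and slide, with leave-outs of -0.11 to 0.077. With Bmal1, Per1's r became -0.16 without the 6 arrays and -0.20 with group and slide, with leave-outs of -0.15 to 0.23. The causes were not tested. In windows of 150 bases the E-box was in 0 members, the E′-box in 1 and the D-box in 0. Nr1d2's call against Bmal1 was also lost with normexp, no filter and without the urothelial arrays. No paired analysis was possible because the groups share no replicate number; with the slide as a block 0 members were called.

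Precision is limited by 8 animals a group, unknown litters and hour of killing, position on the slide being tied to group, and probes of Npas2 and Per3 that disagree.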
